A study of Mus musculus with 8 samples.

Results

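The Ndrg family consisted of 4 genes, Ndrg1, Ndrg2, Ndrg3 and Ndrg4, out of 12746 genes with a symbol on the array, and was chosen by the annotated symbol of each probe. The genes were read by 5 of 16361 probes. Ndrg1 had 2 probes and the other genes had 1 each, and all 5 probes had a value on every array. The samples were mpkCCDc14 cells, a mouse kidney cortical collecting duct line, grown on collagen-coated filters and held in steroid-free serum without dexamethasone before treatment. Aldosterone at 1 µM was given for 1 h (4 arrays) or 6 h (4 arrays), and each array compared these cells with cells given the ethanol vehicle for the same time. Treated cDNA carried Cy5 and vehicle cDNA Cy3 on every array, so a log2 ratio above 0 means more signal with aldosterone, and a dye difference particular to a probe is part of every ratio. The values are ratios without intensities. They therefore give no transcript level, and whether an Ndrg gene or a collecting duct marker was expressed in these cells could not be checked.

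NDRG proteins (N-myc downstream-regulated gene products) share the fold of alpha/beta hydrolases but are not known to act as enzymes. NDRG1 and NDRG2 are substrates of SGK1, the aldosterone-induced kinase that raises sodium channel activity, and NDRG1 phosphorylation is widely used as a readout of SGK1. The genes themselves are regulated too: NDRG1 is repressed by N-myc and induced by hypoxia, NDRG2 has been described in rat kidney as an early aldosterone-induced transcript of the collecting duct, NDRG3 protein is stabilised under hypoxia, and NDRG4 is best known from brain and heart.

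Within the family, Ndrg4, read by 1 probe, had the lowest gene mean at both times and was below vehicle at both. Ndrg1 gave opposite answers from its 2 probes, and Ndrg2 and Ndrg3 did not pass the test at either time. With each gene taken as the mean of its probes, 2 of the 4 genes were called at 1 h, both below vehicle, and 1 was called at 6 h, also below (limma, Benjamini-Hochberg adjusted p under 0.05). The SAM statistic and an unadjusted p under 0.05 in limma gave the same counts, 2 and 1. Over all 15078 features tested, 41% were called at 1 h and 17.8% at 6 h, with 20% above and 21% below vehicle at 1 h and 7.13% above and 10.7% below at 6 h. With 4 genes, counts of 2 and 1 do not set the family apart from that background.

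The array medians lay between -0.0048 and 0.0056, and r between pairs of arrays, taken across probes that are not independent replicates, ran from 0.308 to 0.707. The standard deviation of the log2 ratios ran from 0.310 to 0.589, with replicate 4 the widest at each time. Nothing in the labels says that arrays came from separate cultures, so errors and p-values measure only the spread between these arrays. Values are given as mean ± SE, with the SE taken from limma and n = 4 arrays a time.

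**Figure D1:**
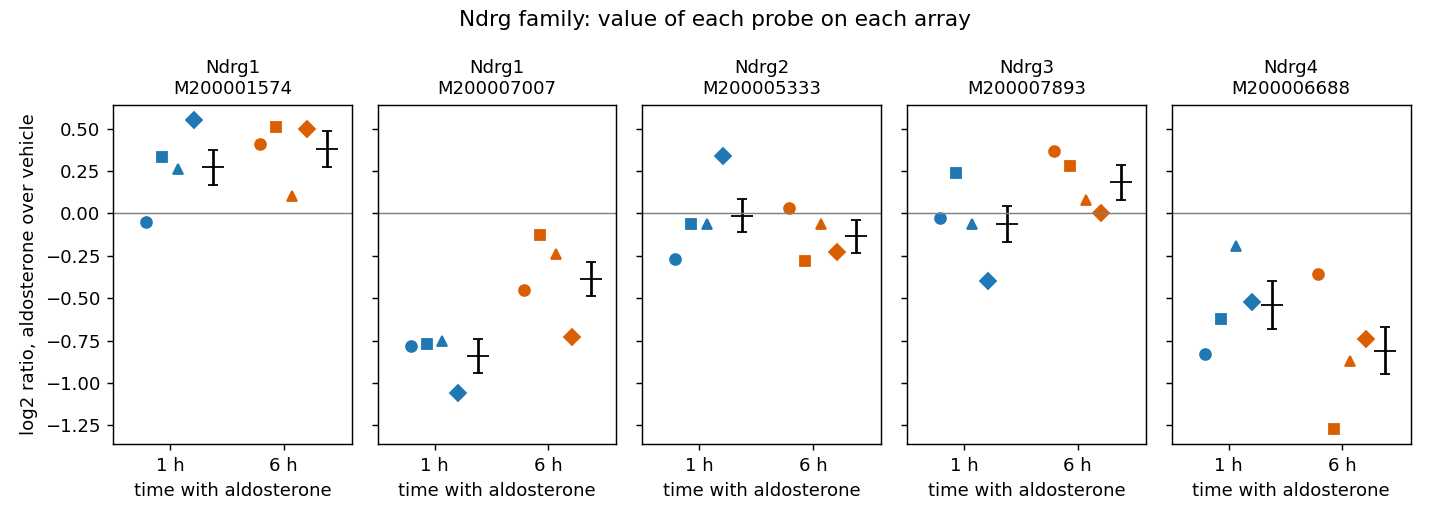
Log2 ratio of aldosterone over vehicle for each of the 5 Ndrg probes, with circles, squares, triangles and diamonds for replicates 1, 2, 3 and 4, and blue for 1 h and orange for 6 h. Black bars give the mean and standard error from the fit of each probe by itself. The Ndrg4 probe lies below 0 on all 8 arrays, and the 2 Ndrg1 probes lie on opposite sides of 0 on 7 of 8 arrays.

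Ndrg4 was read by 1 probe, annotated to a cDNA clone, so its direction could not be checked with another probe. Where both probes of a gene were called, the calls were in opposite directions for 63 of 151 genes at 1 h. At 6 h this was so for 15 of 33 genes. At 1 h its log2 ratios were -0.83, -0.62, -0.19 and -0.52 on replicates 1 to 4, and at 6 h they were -0.36, -1.27, -0.87 and -0.74. All 8 values were below 0, and the values of the 2 times overlapped. The mean was -0.54 ± 0.14 at 1 h, or 0.688 of vehicle (95% interval 0.554 to 0.853, limma adjusted p = 0.0138). At 6 h it was -0.81 ± 0.14, or 0.570 of vehicle (0.460 to 0.708, adjusted p = 0.00616), a ratio lower than those of all but 1.62% of features. The call at 1 h was lost without replicate 1 (mean -0.44, adjusted p = 0.0578), and the call at 6 h held without each array of that time in turn. From 1 h to 6 h the ratio did not change beyond the error (difference -0.27 ± 0.20, 95% interval -0.71 to 0.17, adjusted p = 0.49). Its spread within a time was wide, with a residual SD of 0.326 against a median of 0.186 over all features. Because a dye difference was never balanced by a swap, it cannot be told apart from a response in the 2 ratios against vehicle. A constant dye difference cancels in the contrast of the times, which did not pass.

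RefSeq promoter windows of the mouse build GRCm38.p6, each of 300 bases around an annotated start, were available for 3 of the 4 genes, in 9 windows: 3 for Ndrg2, 2 for Ndrg3 and 4 for Ndrg4. They were searched on both strands for the 15-base palindromic corticosteroid response element, the repeat unit TGTTCT of that element and the hypoxia core ACGTG. The palindrome occurs in 0.01% of 32851 such windows, the repeat unit in 18.97% and the hypoxia core in 19.62%. None of the 9 windows held the palindrome or the repeat unit, and 1 held the hypoxia core. With 9 windows, 1 match does not set these genes apart from the 19.62% of all windows. The window belongs to Ndrg4, which had 4 of the 9 windows, and is shown because it holds the only match (chromosome 8, chr8:95677513-95677812, plus strand). The capitals mark the core on both strands, overlapping in 1 palindrome whose first base lies 38 bases before the start. A match is a description of the letters, and these arrays do not show which start the cells used.
Ndrg4 promoter: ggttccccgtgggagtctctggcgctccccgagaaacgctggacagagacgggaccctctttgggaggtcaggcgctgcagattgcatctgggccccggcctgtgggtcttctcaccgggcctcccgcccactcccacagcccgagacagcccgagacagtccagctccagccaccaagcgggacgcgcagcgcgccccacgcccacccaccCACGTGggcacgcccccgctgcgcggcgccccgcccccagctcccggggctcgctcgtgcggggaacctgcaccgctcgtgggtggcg

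Ndrg1, a stress-responsive gene linked to cell differentiation and to hypoxia, was read by probes M200001574 and M200007007, both annotated to the same RefSeq transcript. Probe M200001574 gave -0.05, 0.33, 0.26 and 0.55 on replicates 1 to 4 at 1 h, and 0.41, 0.51, 0.10 and 0.50 at 6 h. Probe M200007007 gave -0.78, -0.77, -0.75 and -1.06 at 1 h, and -0.45, -0.13, -0.24 and -0.73 at 6 h. The first probe was above 0 on 7 of 8 arrays and the second below 0 on all 8, so they differ in direction and not only in size. Fitted by itself, M200001574 had a mean of 0.27 ± 0.10 at 1 h, which did not pass (adjusted p = 0.0592), and of 0.38 ± 0.10 at 6 h, 1.30 times vehicle (95% interval 1.11 to 1.53, adjusted p = 0.0337). M200007007 was at -0.84 ± 0.10 at 1 h, 0.559 of vehicle (0.478 to 0.653, adjusted p = 0.00107), and at -0.39 ± 0.10 at 6 h, 0.764 of vehicle (0.654 to 0.894, adjusted p = 0.0289). At 6 h both probes were thus called, in opposite directions. In the fit of single probes 41% of 16083 probes were called at 1 h and 17.5% at 6 h, the latter made up of 7.06% above and 10.4% below vehicle.

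The gap between the probes was present on every array. M200001574 minus M200007007 was 0.73, 1.10, 1.01 and 1.61 on the 1 h arrays and 0.86, 0.64, 0.34 and 1.23 on the 6 h arrays. The same probe was the higher on all 8 arrays for 225 of the 876 genes with 2 complete probes (25.7%), so a stable gap is common on this platform. The means of the 2 probes over the 8 arrays had opposite signs for 411 of the 876 genes (46.9%), so opposite directions are common too. The size of the gap is less common. The probe means differed by 0.94 for Ndrg1 against a median of 0.25, and 26 of the 876 genes (3%) differed by at least as much. Both probes were called for 151 of the 876 genes at 1 h and for 33 at 6 h. The calls were in opposite directions for 63 of those 151 and for 15 of those 33, Ndrg1 among the 15. As shares of all 876 genes these are 7.19% and 1.71%. No probe sequences were used here, and whether the probes read different parts of the transcript was not tested.

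**Figure D2:**
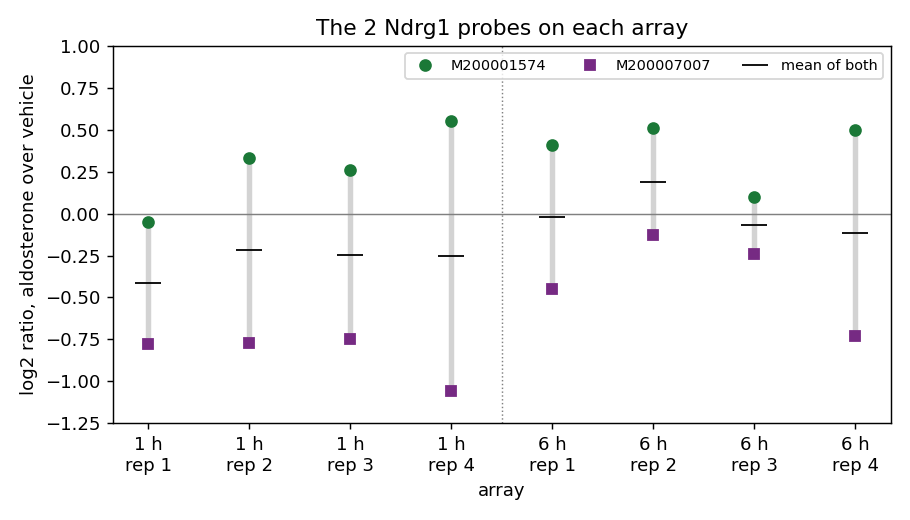
Log2 ratio of aldosterone over vehicle for both Ndrg1 probes on each of the 8 arrays, joined by a grey bar, with a black dash at their mean. M200001574 lies above M200007007 on every array, by 0.34 to 1.61.

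The mean of both probes was therefore a poor summary of Ndrg1. It was below 0 on all 4 arrays at 1 h (-0.41, -0.22, -0.24 and -0.26) and between -0.12 and 0.19 at 6 h, and the 2 times did not overlap. The mean at 1 h was -0.28 ± 0.07 (0.821 of vehicle, 0.736 to 0.917, adjusted p = 0.0124), a call lost without replicate 1 (adjusted p = 0.0527). At 6 h it was 0.00 ± 0.07 (adjusted p = 0.977). The difference of 6 h minus 1 h was 0.28 ± 0.10 with an unadjusted p = 0.0198 in limma, and it did not pass after adjustment (adjusted p = 0.248). The exact permutation test of the 4 against 4 arrays, two-sided, gave p = 0.0286, the smallest its 70 splits can give, without adjustment for the 4 genes tested. Both probes moved upwards from 1 h to 6 h in their means, M200007007 by 0.45 ± 0.14 (adjusted p = 0.217) and M200001574 by 0.11 ± 0.15 (adjusted p = 0.716), and neither difference passed, as was so for all but 0.0249% of probes.

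Ndrg2, a growth-suppressing family member and SGK1 substrate, stayed near a ratio of 1. Its log2 ratios were -0.27, -0.06, -0.06 and 0.34 on replicates 1 to 4 at 1 h, and 0.03, -0.28, -0.06 and -0.23 at 6 h. At each time 1 array was above 0 and 3 were below, and the times overlapped. The mean was -0.01 ± 0.10 at 1 h (adjusted p = 0.929) and -0.14 ± 0.10 at 6 h (adjusted p = 0.357). The 95% intervals ran from 0.851 to 1.15 times vehicle at 1 h and from 0.782 to 1.06 times at 6 h. They cover only the spread between these arrays for 1 probe, and a dye difference of that probe is part of both ratios. The intervals therefore set no bound on the response of Ndrg2 to aldosterone. The difference between the times was -0.12 ± 0.14 (adjusted p = 0.659).

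Known hormone targets on the same arrays give the scale for these values. Fkbp5, an immunophilin of steroid receptor complexes, reached 2.10 ± 0.11 at 6 h, and Scnn1a, a subunit of the aldosterone-regulated sodium channel, 1.47 ± 0.11. The kinase gene Sgk1 itself was at 1.91 ± 0.35 at 6 h (adjusted p = 0.00794), with 2.65, 2.00, 1.53 and 1.46 on its arrays. At 1 h Sgk1 was split, with 1.65 and 1.38 on replicates 1 and 2 but -0.64 and -0.16 on replicates 3 and 4, and did not pass (adjusted p = 0.227). Tsc22d3, encoding the glucocorticoid-induced leucine zipper, was split in the same way at 1 h, with 1.01, 0.88, -0.60 and -0.15. Fkbp5 and Scnn1a did not show this split in sign. Fkbp5 was above 0 on every array at 1 h, with 0.76, 0.69, 0.03 and 0.63 (adjusted p = 0.00562), as was Scnn1a, with 0.59, 0.43, 0.12 and 0.55 (adjusted p = 0.0124, lost without replicate 1 at 0.0503), and in both the lowest value was on replicate 3. The order seen in Sgk1 at 1 h, higher on replicates 1 and 2 than on 3 and 4, was also that of Fkbp5 but not of Scnn1a. The Ndrg genes can be set beside this order. Ndrg3 was also higher on replicates 1 and 2 than on 3 and 4, over a narrower range than Sgk1 (0.24 to -0.40). Its replicate 1 was barely above its replicate 3 (-0.03 against -0.06). Ndrg4 was lower on replicates 1 and 2 than on 3 and 4. Ndrg2 was lowest on replicate 1 and highest on replicate 4, as was the Ndrg1 probe M200001574. The Ndrg1 probe M200007007 was lowest on replicate 4 and highest on replicate 3. The mean of both Ndrg1 probes was lowest on replicate 1 and highest on replicate 2.

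**Figure D3:**
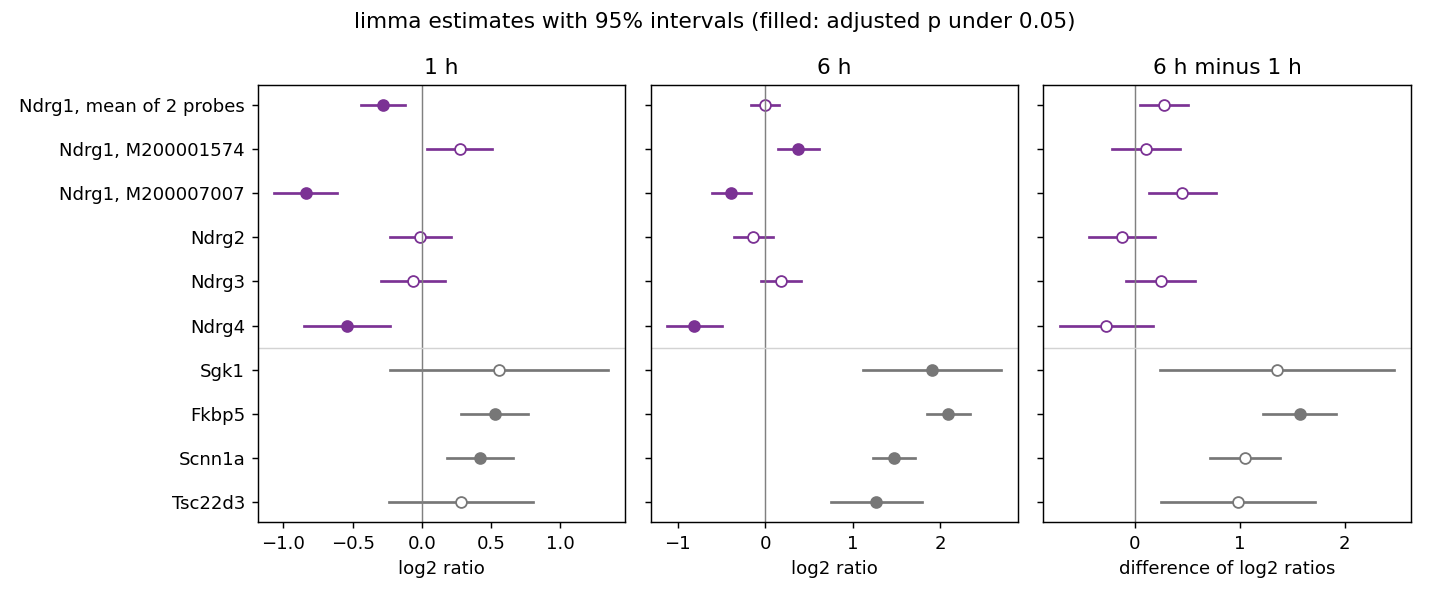
Mean log2 ratio at 1 h and at 6 h, and their difference, with 95% intervals from limma, for the Ndrg genes (purple; Ndrg1 as the mean and as each probe) and for 4 known hormone targets (grey). Filled points passed at an adjusted p under 0.05. At 6 h the targets lie between 1.27 and 2.10, while the Ndrg gene means lie between -0.81 and 0.18 and the Ndrg1 probes at 0.38 and -0.39. The horizontal scales differ between the panels.

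Ndrg3, whose protein links lactate build-up under hypoxia to Raf and ERK signalling, also did not pass. It gave -0.03, 0.24, -0.06 and -0.40 at 1 h, and 0.37, 0.28, 0.08 and 0.0035 at 6 h. At 6 h all 4 arrays were above 0, the lowest of them barely so, while at 1 h only replicate 2 was. The mean was -0.06 ± 0.10 at 1 h (0.958 of vehicle, 0.816 to 1.12, adjusted p = 0.648) and 0.18 ± 0.10 at 6 h (1.14 times vehicle, 0.968 to 1.33, adjusted p = 0.235). The times overlapped, and their difference was 0.25 ± 0.15 (adjusted p = 0.408).

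With both Ndrg1 probes averaged, the genes stood in order of mean ratio as Ndrg4, Ndrg1, Ndrg3 and Ndrg2 at 1 h, from lowest to highest, with 95% intervals of neighbours overlapping throughout. At 6 h the order was Ndrg4, Ndrg2, Ndrg1 and Ndrg3. The interval of Ndrg4 at 6 h (-1.12 to -0.50) lay below that of Ndrg2 (-0.35 to 0.08), and the other 3 overlapped. The place of Ndrg1 depends on the probe. By M200007007 it was lowest at 1 h (-0.84) and second to Ndrg4 at 6 h (-0.39), and by M200001574 it was highest at both times (0.27 and 0.38). These are orders of ratios to vehicle, not of transcript amounts. For the contrast of the times 0 of the 4 genes passed in limma, with 1 at an unadjusted p under 0.05 (Ndrg1), and 0 passed with the SAM statistic. Over all features the contrast called 4 of 15078 (0.0265%).

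Genes with patterns closest to the called members were found by the root mean square difference over the 8 arrays among 12531 other genes. For Ndrg4 these were Klhl13, an adaptor of a ubiquitin ligase, with a difference of 0.12, then Gm26553 with 0.19 and Nmbr, the neuromedin B receptor, with 0.22, against a median of 0.78 over all genes. Klhl13 had a mean ratio of -0.51 at 1 h and -0.79 at 6 h, with its lowest value, -1.14, on replicate 2 at 6 h, the array that was also lowest for Ndrg4. For the mean of the Ndrg1 probes they were Chst5 (0.062), 0610038B21Rik (0.081) and 4930573C08Rik (0.081), against a median of 0.36. Likeness here is over 8 arrays that share 2 treatments and a dye layout. The genes were picked by these same 8 values, so their small differences and like values on single arrays come with the choice and are no further test.

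Most genes of the list of kinases that act on NDRG proteins, which also holds mTORC2 subunits and Nedd4l, did not pass. Of 13 measured genes of the SGK and mTORC2 list, 2 passed at 1 h and 1 at 6 h, all above vehicle (15.4% and 7.69% called, against 41% and 17.8% of all features). The 2 at 1 h were Akt1, a kinase related to SGK1, at 0.49 ± 0.09 (adjusted p = 0.00427) and Prkaca, a catalytic subunit of protein kinase A, at 0.33 ± 0.09 (adjusted p = 0.0139), and the 1 at 6 h was Sgk1. The other SGK kinases did not pass: Sgk2 was at -0.11 at 1 h and -0.15 at 6 h, and Sgk3 at 0.10 and -0.01. Akt2 did not pass at 6 h with a wide error, at 0.79 ± 0.46 (adjusted p = 0.25). The list's median ratio was 0.09 at 1 h and 0.05 at 6 h, against 0.00 over all features at both. Below vehicle, 0 passed in limma at either time, also at an unadjusted p under 0.05. SAM called more of the list, with 4 above and 1 below at 1 h and 2 above and 0 below at 6 h. The share that SAM called over all features is not given here.

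Genes known to control Ndrg transcription were called at shares near those of all features (37.5% and 25%, against 41% and 17.8%). Of 16 measured, 6 were above vehicle at 1 h and 4 at 6 h, with 0 below at either time in limma. An unadjusted p under 0.05 in limma and SAM also gave 0 below. Over all features, 20% were above and 21% below at 1 h, and 7.13% above and 10.7% below at 6 h. Whether the directions in this list differ from those shares was not tested. Hif1a, the oxygen-regulated factor that induces NDRG1, was at 0.29 ± 0.07 at 1 h (adjusted p = 0.0119) and 0.39 ± 0.07 at 6 h (adjusted p = 0.00757). Egln1, the prolyl hydroxylase that marks it for breakdown, was at 0.39 ± 0.07 at 1 h (adjusted p = 0.00338) and did not pass at 6 h. Mxi1, an antagonist of Myc, was at 0.62 ± 0.11 at 1 h (adjusted p = 0.00338) and 0.38 ± 0.11 at 6 h (adjusted p = 0.0436, lost without replicate 1, 2 or 4, at 0.0899, 0.148 and 0.173). Mycn, encoding the N-myc protein that names the family, did not pass at -0.12 and -0.10, nor did Myc at 0.15 and -0.07. Mycl, another Myc gene of the list, did not pass at 1 h (0.25, adjusted p = 0.124). At 6 h Mycl was called at 0.62 ± 0.12 (adjusted p = 0.00961), the highest ratio of the list at that time. Nr3c1, the glucocorticoid receptor gene, did not pass at -0.25 and -0.24.

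Hypoxia-induced genes that are known to rise with Ndrg1 were called more often than any other of the 5 lists. The lists were chosen with earlier results of these data known, so this share is no independent test. Of 17 measured, 10 were above vehicle and 3 below at 1 h, and 7 were above and 0 below at 6 h in limma (10 and 0 at an unadjusted p under 0.05, 11 and 0 with SAM). That is 76.5% and 41.2% called, against 41% and 17.8% of all features, and the list medians were 0.41 and 0.32 against 0.00. Hk2, a hexokinase that opens glycolysis, was at 0.66 ± 0.07 at 1 h (adjusted p = 0.000914) and 0.46 ± 0.07 at 6 h (adjusted p = 0.00415). The mitophagy receptor Bnip3 was at 0.65 ± 0.11 (adjusted p = 0.00261) and 0.83 ± 0.11 (adjusted p = 0.00227), and its relative Bnip3l at 0.41 ± 0.07 (adjusted p = 0.00244) and 0.28 ± 0.07 (adjusted p = 0.0226). The Bnip3l call at 6 h was lost without replicate 1, 3 or 4 (0.0697, 0.0915 and 0.0863). Those below at 1 h were the glucose carrier Slc2a3 at -0.61, the peptide hormone gene Adm at -0.58 and the mitochondrial protein gene Higd1a at -0.54, and none of these 3 passed at 6 h. Without replicate 4 at 6 h the list's calls at that time fell to 4. The Ndrg1 probe M200001574 had the sign of the list median at both times and M200007007 the opposite sign. Because the means of these probes differ in sign, 1 of them had to share that of the median. Which probe reads Ndrg1 was not tested.

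Partners of NDRG proteins in vesicle traffic and adhesion had 5 of 14 above vehicle and 1 below at 1 h, and 2 above and 0 below at 6 h in limma (4 and 0 at an unadjusted p under 0.05, 5 and 0 with SAM), or 42.9% and 14.3% called, near the 41% and 17.8% of all features. Rab11a, a recycling endosome GTPase, was at 0.33 ± 0.08 at 1 h (adjusted p = 0.0105) and 0.37 ± 0.08 at 6 h (adjusted p = 0.0139). Its call at 6 h was lost without replicate 2 (0.055) or 4 (0.0652). Cdh1, the E-cadherin whose recycling NDRG1 is known to aid, was at 0.20 ± 0.06 at 1 h (adjusted p = 0.0355) and 0.30 ± 0.06 at 6 h (adjusted p = 0.0151). Its call at 1 h was lost without any given array (0.0584 to 0.096) and that at 6 h without replicate 2 (0.0625) or 4 (0.0651). Rabac1, a prenylated Rab acceptor, was at 0.40 ± 0.09 at 1 h (adjusted p = 0.00908) and did not pass at 6 h. The number called in this list at 1 h was 2 without replicate 3 and 2 without replicate 4, and at 6 h it was 1 without replicate 2 and 0 without replicate 4.

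Other genes of the alpha/beta hydrolase fold were called about as often as all features (41% and 17.8%), with 6 of 20 above and 1 below at 1 h (35% called) and 3 above and 1 below at 6 h (20%). The 1 below at both times was Abhd3, a phospholipase, at -1.77 ± 0.16 at 1 h (adjusted p = 0.00065) and -1.04 ± 0.16 at 6 h (adjusted p = 0.0041). Ephx1, the microsomal epoxide hydrolase, was at 0.23 ± 0.08 at 1 h (adjusted p = 0.0421, lost without any given array, 0.0534 to 0.154) and 0.39 ± 0.08 at 6 h (adjusted p = 0.011). Abhd4, an enzyme of N-acyl phospholipid breakdown, was at 0.39 ± 0.08 at 1 h (adjusted p = 0.0061) and 0.34 ± 0.08 at 6 h (adjusted p = 0.0213), the latter lost without replicate 1 (0.0542), 2 (0.0669) or 4 (0.0947). Among the means of the Ndrg and Abhd genes, those of Ndrg4 and Abhd3 were called below vehicle at both times, as was the single Ndrg1 probe M200007007.

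**Figure D4:**
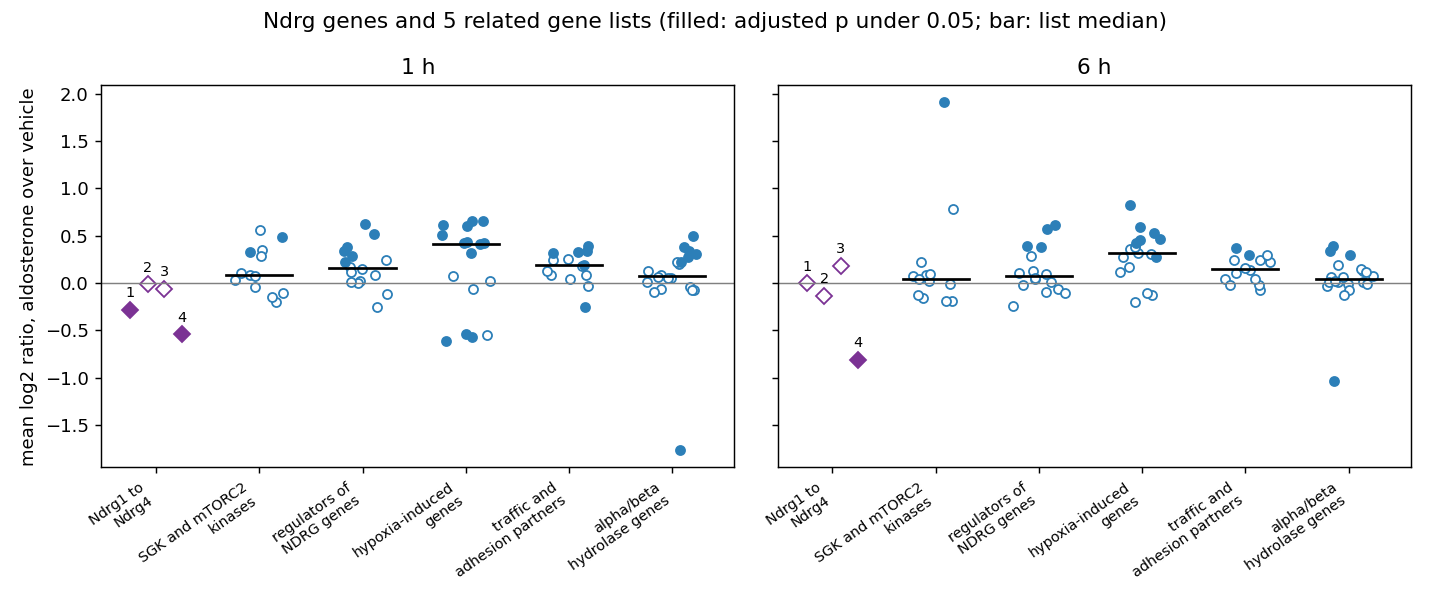
Mean log2 ratio of aldosterone over vehicle at 1 h and 6 h for Ndrg1 to Ndrg4 (purple diamonds, labelled by number) and for every measured gene of 5 related lists (blue circles, black bar at the list median). Filled symbols passed at an adjusted p under 0.05. The hypoxia-induced genes have medians of 0.41 and 0.32, and Ndrg4 lies at -0.54 and -0.81.

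Marker lists of cell types were read from the same fit, as ratios only. Over all features, 20% were called above and 21% below at 1 h, and 7.13% above and 10.7% below at 6 h, and lists of 6 to 9 genes are too short to be set apart from these shares. Of 9 principal cell markers, 1 was above vehicle and 3 below at 1 h, and 1 above and 1 below at 6 h. Of 6 intercalated cell markers the counts were 1 and 3 at 1 h and 1 and 1 at 6 h. Fibroblast, endothelial and blood cell markers had 0 above at either time in limma, at an unadjusted p under 0.05 or with SAM, and 3 of 6 below at 1 h and 1 at 6 h in limma, with all 6 mean ratios under 0 at both times (-0.65 to -0.06, and -0.40 to -0.04). Of 6 glial and neuronal markers, the cells in which Ndrg2 and Ndrg4 are best known, 0 were called at 1 h in limma (1 at an unadjusted p under 0.05, 3 with SAM), and 1 was above and 1 below at 6 h. Their part in the Ndrg4 ratio was not tested.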

How the data were processed

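Per the labels' protocols, oligo(dT)-primed cDNA was dye-coupled, hybridised to 2-colour arrays and read with a GenePix scanner. What the authors deposited is the log2 of Cy5 (aldosterone) over Cy3 (vehicle) after normalization with Bioconductor, per the labels. No source used here gives the normalization method, background correction or spot filter, and scale and centring were taken as deposited. No column was left without a sample (0 such columns).

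Probes were named from the platform annotation, which predates current symbols. The members and gene lists were chosen with earlier results of these data known. Probes with values on at least 3 of 4 arrays a time were kept, probes of a gene were averaged, and 12535 genes and 2543 unnamed probes were tested. Limma (version 3.58.1, R 4.3.3) fitted a mean for each time to all 8 arrays, with 6 residual degrees of freedom and 3.73 prior degrees of freedom. P-values were two-sided and adjusted by Benjamini-Hochberg over all 15078 features at 0.05. The fit was tested on simulated data. Named genes were all members, the 3 list genes with the smallest p at either time, 4 reference targets, and the 3 nearest genes to each called member. Other list genes were chosen after their values were seen. Alternatives were other scalings, filters and variance models, single probes, each time alone, SAM (named in the labels) at a false discovery rate of 5%, an exact permutation test, and leaving out each array. With 4 arrays a time the number of arrays limits the precision.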

Additional observations from a re-analysis of the deposited data

Results flagged for a closer look

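One probe value stood apart from the other arrays of its time. Ndrg1 probe M200007007 at 1 h was at -1.06 on replicate 4, against -0.78, -0.77 and -0.75 on replicates 1 to 3, a gap of 0.903 of the group's range, above Dixon's 95% critical value for 4 samples. Chance flags about 1 in 20 groups, and the rule was run on each of the 5 probes and on the Ndrg1 mean, at both times. Replicate 4 was also the array with the widest log2 ratios at 1 h (SD 0.589), and its part in this value was not tested. Without it the mean of this probe was -0.77 and remained called (adjusted p = 0.00405).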

How the results depend on the processing

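No paired analysis was possible because the labels give replicate numbers to 2 arrays only, both at 6 h. The direction of Ndrg1 depends on the probe. Against -0.28 for the mean of both probes at 1 h and 0.00 at 6 h, probe M200001574 by itself gave 0.27 (adjusted p = 0.0592) and 0.38 (0.0337), and M200007007 gave -0.39 at 6 h (0.0289). Leaving out an array, Ndrg1 ranged from -0.30 to -0.24 at 1 h (adjusted p 0.0256 to 0.0527) and from -0.068 to 0.033 at 6 h, where 3 of 4 omissions changed its sign. Ndrg4 ranged from -0.66 to -0.44 at 1 h (0.0162 to 0.0578) and from -0.96 to -0.66 at 6 h (0.00686 to 0.0268). Ndrg2 at 1 h ranged from -0.13 to 0.073 and Ndrg3 at 1 h from -0.16 to 0.05, and neither was called; array weights also turned Ndrg3 at 1 h to 0.019. Ndrg1 for 6 h minus 1 h, 0.28, was under 0.05 in the unadjusted exact permutation test (p = 0.0286) and in limma before adjustment (0.0198), and over it in every adjusted fit run. For these sign changes and lost calls the cause was not tested, beyond the fewer arrays. For the means of Ndrg1 at 1 h and of Ndrg4 at both times, the calls held under every other scaling, filter and variance model run, with each time alone and with SAM. The omission of arrays within single probes was added after seeing the data. At 6 h M200001574 (0.34 to 0.47) was then called in 1 of 4 omissions, as was M200007007 (-0.47 to -0.27), while M200007007 at 1 h (-0.87 to -0.77) was called in all 4. M200001574 at 1 h passed without replicate 1 (0.38, adjusted p = 0.0249). Signal over background is unknown, so low signal cannot be judged. Counts of the lists moved by over 1.5 times in these cases: the SGK and mTORC2 list at 6 h from 1 to 2 under scale and quantile scaling and without replicate 2, the hypoxia list at 6 h from 7 to 4 without replicate 4, the traffic and adhesion list at 1 h from 6 to 2 without replicate 3 or 4 and at 6 h from 2 to 4 under the same scalings, to 1 without replicate 2 and to 0 without replicate 4, and the alpha/beta hydrolase list from 7 to 4 at 1 h without any given array and from 4 to 2 at 6 h without replicate 1 or 4.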
